A study of Homo sapiens with 48 samples.

Results

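The 10 genes described here encode the main heat shock chaperones of the cytosol and the mitochondrion. They were chosen by name, as the rows for HSP90AA1, HSP90AB1, HSPA8, HSPH1, HSPA1A, HSPA1B, DNAJA1, DNAJB1, HSPD1 and HSPE1, which are 10 of the 19923 protein-coding gene names counted. The choice was made with earlier results of these data known, so the share of all genes given beside a count of members is a description. All 10 were found in every library and all 10 passed the filter on low counts in both cell lines. Poly(A) RNA had been sequenced from the human neuroblastoma lines Kelly and NGP. Cells had been treated with STM2457 at 8 µM for 3 or 6 days. STM2457 inhibits METTL3, the enzyme that places most m6A marks on mRNA, and the control cells were given DMSO. To stop transcription, actinomycin D at 10 µg/ml followed for 3 or 6 h, and the 0 h groups had none. In bulk RNA, fewer cells of a kind and less RNA per cell cannot be told apart. Each of the 24 combinations of line, agent, days and hours had 2 libraries, 48 in all. The labels do not say whether these were separate cultures, so p-values measure the spread between libraries, which may be technical.

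Heat shock chaperones bind unfolded or partly folded proteins and help them to fold. HSP70 proteins work with J-domain partners, which bring clients and stimulate the HSP70 ATPase, and with nucleotide exchange factors, which let the client go. HSP90 takes clients such as kinases and steroid receptors at a later stage, while in mitochondria HSP60 and its lid HSP10 enclose the client. Heat shock factor 1 (HSF1) drives many of these genes by binding inverted repeats of the letters GAA upstream of them, known as heat shock elements.

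The libraries held 11139550 to 21942238 fragments in genes, and the 10 chaperones took 0.632 to 1.15% of them in Kelly and 0.537 to 1.33% in NGP. The adrenergic neuroblastoma markers fitted the labels: 10 of 10 had a median of at least 1 CPM in Kelly and 9 of 10 in NGP, where TH, the tyrosine hydroxylase gene, was near 0 (median 0.51 CPM). Their summed level ran from 2790 to 5300 CPM in Kelly and from 777 to 3710 CPM in NGP. No leukocyte marker reached that median in either line. Of the mesenchymal or fibroblast markers, 4 of 8 did in each line, with summed levels of 89.4 to 238 CPM in Kelly and 149 to 264 CPM in NGP. Of the epithelial and endothelial markers, KRT19 and VWF did in Kelly and EPCAM in NGP, with sums of at most 11.2 CPM.

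One set of libraries stood apart. It enters the NGP results that use DMSO at 6 days with 0 or 3 h of actinomycin D, those against Kelly included, and none within Kelly or of STM2457 at 3 days. In NGP kept with DMSO for 6 days, ATF5, which encodes a transcription factor of the amino acid stress response, had 145 and 192 CPM at 0 h and 127 and 129 CPM at 3 h of actinomycin D. In the other 10 NGP groups it had between 3.32 and 29.3 CPM. ASNS, the asparagine synthetase gene, showed the same division, with 266 to 352 CPM in those 4 libraries and 66.2 to 146 CPM in the other NGP libraries. CHAC1 and DDIT3, further genes of that response, had 40.2 to 43.9 and 47.2 to 51.6 CPM in the 2 libraries at 0 h. They stayed at no more than 3.72 and 10.4 CPM in the other NGP libraries at 0 h. The NGP libraries with DMSO for 6 days and 6 h of actinomycin D did not share this state, with 19.0 and 29.3 CPM of ATF5. In Kelly with DMSO for 6 days ASNS was raised to a lesser degree, with 150 to 156 CPM at 0 h. Kelly had 88.1 to 104 CPM of ASNS at 0 h with DMSO for 3 days, and 76.5 to 79.7 CPM with STM2457 for 6 days. CHAC1 and DDIT3 in that Kelly DMSO group (5.01 to 8.38 and 7.29 to 11.4 CPM) overlapped their levels with DMSO for 3 days. ATF5 had 5.47 to 7.48 CPM there. These genes were chosen after their values were seen, and their part in the chaperone results of either line was not tested.

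The members differ in how far a fragment can be assigned to them. The counting command recorded in the files names no option for multi-mapping fragments, which featureCounts leaves out by default. Stretches shared with another place in the genome may therefore be undercounted. A fragment that also covers a differing base can still be placed, and the share of fragments lost was not measured. HSPA1A (chr6:31815543-31817946) and HSPA1B (chr6:31827738-31830254), the neighbouring stress-inducible HSP70 genes, have coding sequences that differ at 4 of 1926 bases. Of all 31-base stretches in the HSPA1A canonical transcript, 76.9% also occur in HSPA1B. Only 0.84% of the stretches of HSPH1 (chr13:31134973-31162388) occur elsewhere, followed by 17.1% for DNAJB1 (chr19:14514769-14529770) and 18.7% for DNAJA1 (chr9:33025273-33039907). For the abundant members the share was 50.2% for HSP90AA1 (chr14:102080738-102139699), 47.6% for HSP90AB1 (chr6:44246166-44253888) and 53.0% for HSPA8 (chr11:123057489-123063230). The mitochondrial pair was higher still, with 69.1% for HSPD1 (chr2:197486584-197516737) and 64.5% for HSPE1 (chr2:197500140-197503449).

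A processed pseudogene holds the largest of these copies for HSP90AA1, HSP90AB1, HSPA8, DNAJA1, HSPD1 and HSPE1. HSPA1A and HSPA1B share most with each other, and DNAJB1 shares 8.5% with the non-coding gene CAVIN2-AS1 and 7.87% with DNAJB1P1. The annotation names 26 pseudogenes of HSPE1, 18 of HSPD1, 17 of HSPA8, 6 each of HSP90AB1 and DNAJA1, 5 of HSP90AA1 and 2 of DNAJB1. It names none for HSPH1, HSPA1A or HSPA1B. HSP90AA2P alone holds 29.1% of the HSP90AA1 stretches, HSP90AB3P holds 32.8% of those of HSP90AB1, and HSPD1P1 holds 34.5% of those of HSPD1. HSPE1 also shares 34.5% of its canonical transcript with the readthrough gene HSPE1-MOB4, and fragments there belong to more than 1 gene, which the default setting does not count. By this measure the levels of HSPA1A, HSPA1B, HSPE1 and HSPD1 are the least certain.

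**Figure D1:**
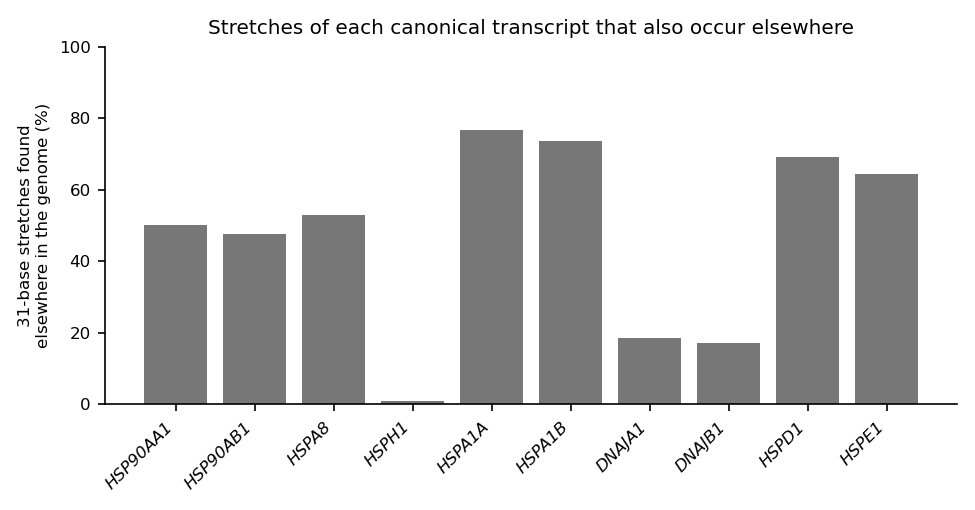
Share of the 31-base stretches of each member's canonical transcript that also occur elsewhere in the GRCh38 chromosomes (%), as 1 bar per gene. HSPA1A and HSPA1B are highest, each through the other, and HSPH1 is lowest at 0.84%.

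The upstream sequences of the members were searched for the heat shock element letters, because many were called in 1 direction in NGP. There 8 of 10 were called higher with STM2457 at 6 days, and 9 of 10 lower with DMSO at 6 than at 3 days. The members were named as heat shock genes beforehand, so the count of matches does not bear on their courses here. The 8-base forms were GAANNTTC and TTCNNGAA, each of which reads the same on both strands. The 13-base forms add NN and a further GAA after the first, or NN and a further TTC after the second. They are each other's reverse complement and contain both 8-base forms. RefSeq promoters (GRCh38.p14, 250 bases before to 50 after a start) were found for all 10 members. Only the 250 bases before the start were searched, in the members and in all other promoters. An 8-base form lay in a promoter of 8 members (all but HSPH1 and HSPE1), against 11.6% of 35116 promoters and 14.0% of 27305 genes. A 13-base form lay in promoters of 4 members, HSP90AA1, HSP90AB1, HSPA8 and HSPD1, against 0.44% of promoters and 0.56% of genes. The windows below are printed 5′ to 3′ on each gene's strand, with the matching letters in capitals, to show the single 8-base matches of HSPA1A, HSPA1B and DNAJA1 beside the 13-base runs of the abundant genes.
HSPA1A, chr6:31815425-31815456, plus strand: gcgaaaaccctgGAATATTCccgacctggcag
HSPA1B, chr6:31827621-31827652, plus strand: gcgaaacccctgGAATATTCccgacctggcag
DNAJA1, chr9:33025063-33025094, plus strand: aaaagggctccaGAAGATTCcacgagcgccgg
DNAJB1, chr19:14518425-14518486, minus strand: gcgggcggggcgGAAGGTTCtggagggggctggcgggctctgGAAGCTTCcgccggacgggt
HSP90AA1, chr14:102087093-102087144, minus strand: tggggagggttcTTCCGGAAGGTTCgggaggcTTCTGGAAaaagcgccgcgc
HSP90AB1, chr6:44247766-44247855, plus strand: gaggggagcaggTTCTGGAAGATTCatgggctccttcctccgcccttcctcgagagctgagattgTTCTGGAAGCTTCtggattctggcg
HSPA8, chr11:123062167-123062246, minus strand: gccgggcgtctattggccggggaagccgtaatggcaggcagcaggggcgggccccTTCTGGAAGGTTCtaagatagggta
HSPD1, chr2:197500056-197500090, minus strand: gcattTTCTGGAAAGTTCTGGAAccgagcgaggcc
The HSPA1A and HSPA1B windows hold the same 8 letters, and HSPD1 holds overlapping copies in its window. HSP90AB1 holds 2 separate 13-base matches, and so does HSPA8, whose other one begins at position -230 from the start site, outside the printed window. Several members have more than 1 RefSeq start, and only the promoter with matches is shown. A match is a description of letters and not of binding, and the absence of a match in HSPH1 and HSPE1 applies to these windows alone.

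Levels per length, as CPM per kilobase of the deposited exon length, set the members in a like order in both lines. HSP90AB1, the constitutive cytosolic HSP90, was the most abundant member in DMSO at 0 h. It had 1003 ± 34.2 CPM per kb (SD, n = 2) in Kelly at 3 days and 1034 ± 34.9 in NGP. HSPA8, the constitutive HSP70, followed in Kelly with 350 ± 6.06 CPM per kb, and HSP90AA1, the inducible HSP90, had 316 ± 12.2. In NGP at 3 days that order was turned, with 641 ± 13.9 CPM per kb for HSP90AA1 and 218 ± 8.96 for HSPA8. HSPD1 and DNAJA1 lay at 196 ± 2.93 and 178 ± 17.4 CPM per kb in Kelly and at 153 ± 1.58 and 137 ± 4.86 in NGP. HSPH1, an HSP110 that acts as an exchange factor for HSP70, had 32.4 ± 0.121 and 30.99 ± 0.960 CPM per kb. At 6 days HSP90AA1 lay above HSPA8 on this scale in both lines. The means were 199.6 and 186.4 CPM per kb in Kelly and 243.5 and 95.06 in NGP. In NGP HSPA8 then also lay below HSPD1, which had 132.7 CPM per kb.

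On this scale the stress-inducible HSP70 genes, DNAJB1 and HSPE1 were the least abundant members in both lines. HSPA1B, DNAJB1 and HSPE1 had 17.0 ± 1.60, 16.4 ± 0.441 and 15.7 ± 1.01 CPM per kb in Kelly at 3 days, and their library values overlapped. In NGP at 3 days the same genes had 22.5 ± 2.56, 17.8 ± 2.64 and 9.84 ± 1.41 CPM per kb, with no overlap between neighbours. HSPA1A was last, with 1.90 ± 0.511 CPM per kb in Kelly and 3.23 ± 0.535 in NGP. HSPA1B took 84.1 to 97.2% of the pair's fragments in the Kelly libraries and 81.7 to 96.3% in the NGP libraries. That split rests on the parts of each transcript that are not shared with the other. HSPA1A had only 11 to 113 fragments per library in Kelly and 11 to 177 in NGP, so its changes carry the widest errors. The exon lengths include alternative transcripts, so an order between genes also depends on them. The length used was 4849 bases for HSPA8, 5248 for HSP90AA1 and 1823 for HSPE1, where the canonical transcripts have 2264, 3228 and 557. The close order of HSP90AA1 and HSPA8 in Kelly at 6 days and the place of HSPE1 are therefore not settled.

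The lines were compared in DMSO at 0 h in a joint fit of all 48 libraries of 17343 genes. The test was the quasi-likelihood one of edgeR, with Benjamini-Hochberg adjusted p-values, and a call is one under 0.05. At 3 days 4 of 10 members were called (30% of all genes were). HSP90AA1 was higher in NGP by a log2 difference of 1.07 (SE 0.04, adjusted p = 3.1e-36), while HSPA8 (-0.64, SE 0.05), DNAJA1 (-0.33, SE 0.07) and HSPD1 (-0.31, SE 0.05) were lower. Scaling to the ERCC spike-ins, synthetic RNAs added to the samples, moved the median of all genes by 0.27, and DNAJA1 and HSPD1 were then at 0.08 and 0.10, not called. At 6 days 7 of 10 members were called (31.6% of all genes), 6 of them lower in NGP, led by HSPA1B at -1.30 (SE 0.21, adjusted p = 3.06e-07). HSP90AA1 remained higher in NGP at 6 days, by 0.33 (SE 0.04, adjusted p = 1.57e-11). These 6-day values rest on the NGP libraries that stood apart. Without replicate 1 of DMSO in NGP the HSP90AB1 difference was -0.07 (adjusted p = 0.334) and without replicate 1 in Kelly -0.12 (adjusted p = 0.0823), where the full value was -0.14. HSPD1 lost its call without replicate 2 in either line (-0.14 in NGP and -0.17 in Kelly, adjusted p = 0.103 and 0.0515).

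STM2457 was compared with DMSO at 0 h within each line, relative to the typical gene (TMM scaling). After 3 days HSP90AA1 fell in both lines, HSPA8 in Kelly and HSP90AB1 in NGP. In Kelly, HSP90AA1 had 1611 and 1702 CPM with DMSO and 1276 and 1307 with STM2457, without overlap. Its log2 change was -0.36 (SE 0.05, adjusted p = 7.45e-10). In NGP it had 3415 and 3312 CPM with DMSO and 2798 and 2778 with STM2457, a change of -0.27 (SE 0.03, adjusted p = 5.92e-10). HSPA8 fell in Kelly, from 1677 and 1718 to 1399 and 1473 CPM (-0.24, SE 0.05, adjusted p = 0.000796), and had a value of 0.04 (SE 0.05, adjusted p = 0.895) in NGP. HSP90AB1 fell in NGP, from 3153 and 3006 to 2786 and 2637 CPM (-0.18, SE 0.04, adjusted p = 0.000305), with -0.12 (SE 0.04, adjusted p = 0.122) in Kelly.

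In each line 2 of 10 members were called at 3 days, all of them lower, where 1.1% of all genes were called lower in Kelly and 2.45% in NGP. The median of the 10 log2 changes was -0.18 in Kelly and -0.23 in NGP, against 0 for all genes. HSPA8 lost its call in Kelly without replicate 2 of the DMSO group (-0.22, adjusted p = 0.0523) or replicate 1 of the STM2457 group (-0.20, adjusted p = 0.148). HSP90AB1 lost its call in NGP without replicate 1 of DMSO (-0.15, adjusted p = 0.0615) or replicate 2 of STM2457 (-0.14, adjusted p = 0.0739). The direction in Kelly holds relative to other genes only. ERCC scaling moved the median of all Kelly genes at 3 days by 0.38, and HSP90AA1 and HSPA8 were then at 0.04 and 0.16. On that scale 5 members were called higher, HSPA8 among them, and none lower. Relative to the shift HSP90AA1 and HSPA8 were at -0.34 and -0.22. In NGP the shift was 0.10 and HSP90AA1 was still called lower, at -0.17.

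After 6 days the called changes were upward in both lines. The Kelly DMSO libraries used here had the raised ASNS given above, and its part in the Kelly changes was not tested. In Kelly 4 of 10 members rose (2.7% of all genes were called higher). HSPH1 had 179 and 176 CPM with DMSO and 280 and 293 with STM2457, a log2 change of 0.69 (SE 0.08, adjusted p = 1.82e-11), which kept its call without any one library. HSPA8 changed from 917 and 890 to 1045 and 1072 CPM (0.23, SE 0.05, adjusted p = 0.000936). DNAJA1, a J-domain partner of HSP70, changed from 316 and 303 to 373 and 358 CPM (0.24, SE 0.07, adjusted p = 0.0261). HSP90AA1 changed from 1052 and 1043 to 1195 and 1158 CPM (0.17, SE 0.05, adjusted p = 0.0146).

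These Kelly changes other than that of HSPH1 were small, and their calls rested on single libraries. HSP90AA1 and DNAJA1 lost theirs when any of the 4 libraries was left out, with values of 0.13 to 0.17 and 0.19 to 0.27. HSPA8 lost its call without replicate 2 of DMSO (0.21, adjusted p = 0.0623) or replicate 2 of STM2457 (0.19, adjusted p = 0.114). With ERCC scaling, which moved the median of all genes by -0.21, HSPH1 stayed higher (0.44), while HSP90AA1, HSPA8 and DNAJA1 were at -0.08, -0.02 and -0.01, and HSP90AB1 (-0.24) and HSPD1 (-0.22) were called lower.

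In NGP at 6 days 8 of 10 members rose with STM2457 (4.45% of all genes were called higher), with a median log2 change of 0.68 over the 10 against 0.02 for all genes. HSP90AA1 had 1291 and 1264 CPM with DMSO and 2173 and 2124 with STM2457 (0.75, SE 0.03, adjusted p = 3.48e-33). HSP90AB1 changed from 2174 and 2431 to 2814 and 2633 CPM (0.24, SE 0.04, adjusted p = 2.87e-07). HSPA8 had 474 and 448 CPM with DMSO and 923 and 935 with STM2457 (1.01, SE 0.05, adjusted p = 2.3e-28). The STM2457 libraries lay above the DMSO libraries for every one of these genes.

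The inducible HSP70 genes showed the largest changes. HSPA1B had 15.7 and 12.8 CPM with DMSO and 37.0 and 49.0 with STM2457 (1.59, SE 0.19, adjusted p = 1.75e-10). HSPA1A had 0.597 and 1.91 CPM with DMSO and 5.22 and 5.86 with STM2457 (2.16, SE 0.52, adjusted p = 0.00198). Without replicate 1 of the DMSO group the HSPA1A change was 1.53 and not called (adjusted p = 0.179). Counted as 1 gene, the pair rose by 1.64 (SE 0.17, adjusted p = 2.17e-12).

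Their J-domain partners rose as well. DNAJB1 changed from 27.6 and 25.6 to 47.7 and 49.5 CPM (0.87, SE 0.20, adjusted p = 0.00106). DNAJA1 changed from 204 and 180 to 283 and 304 CPM (0.61, SE 0.07, adjusted p = 1.6e-10). Of the mitochondrial pair, HSPD1, the HSP60 gene, changed from 565 and 530 to 669 and 670 CPM (0.29, SE 0.05, adjusted p = 1.61e-05). Its lid gene HSPE1 had a value of 0.62 (SE 0.29, adjusted p = 0.229), and HSPH1 had 0.22 (SE 0.08, adjusted p = 0.0544). With ERCC scaling, whose shift here was -0.02, the same 8 genes were called higher, with values from 0.20 to 2.12. The 2 DMSO libraries of this comparison are those with high ATF5, ASNS, CHAC1 and DDIT3, and the part of that state in the result was not tested.

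**Figure D2:**
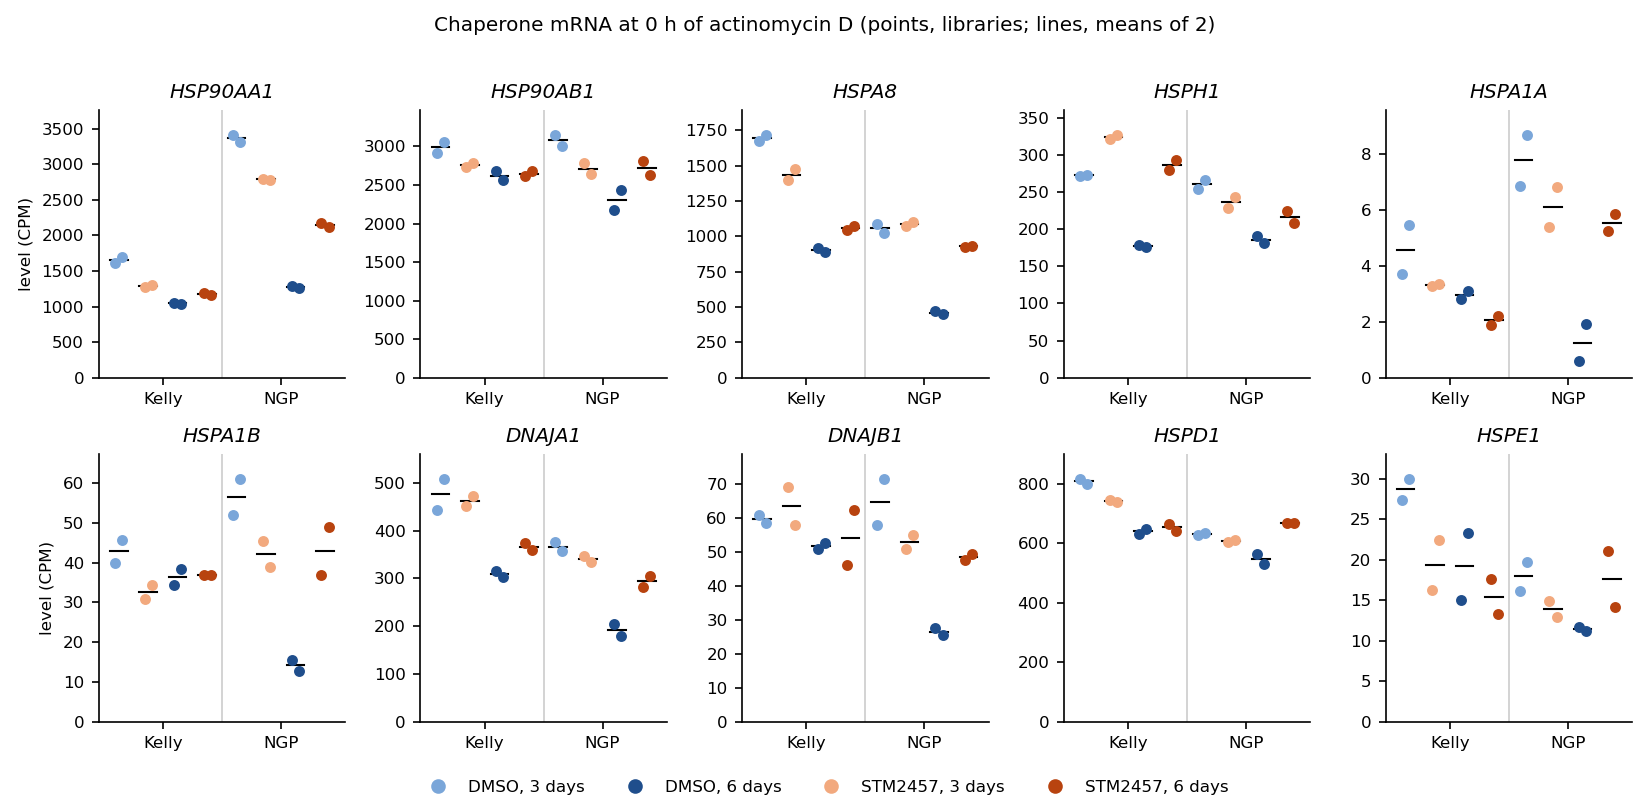
Level of each member (CPM, linear axis from 0) in the 16 libraries without actinomycin D, by line, agent and days, with each library as a point and the mean of 2 as a line. On this scale both DMSO libraries at 6 days in NGP lie below the other NGP libraries for all 10 members.

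**Figure D3:**
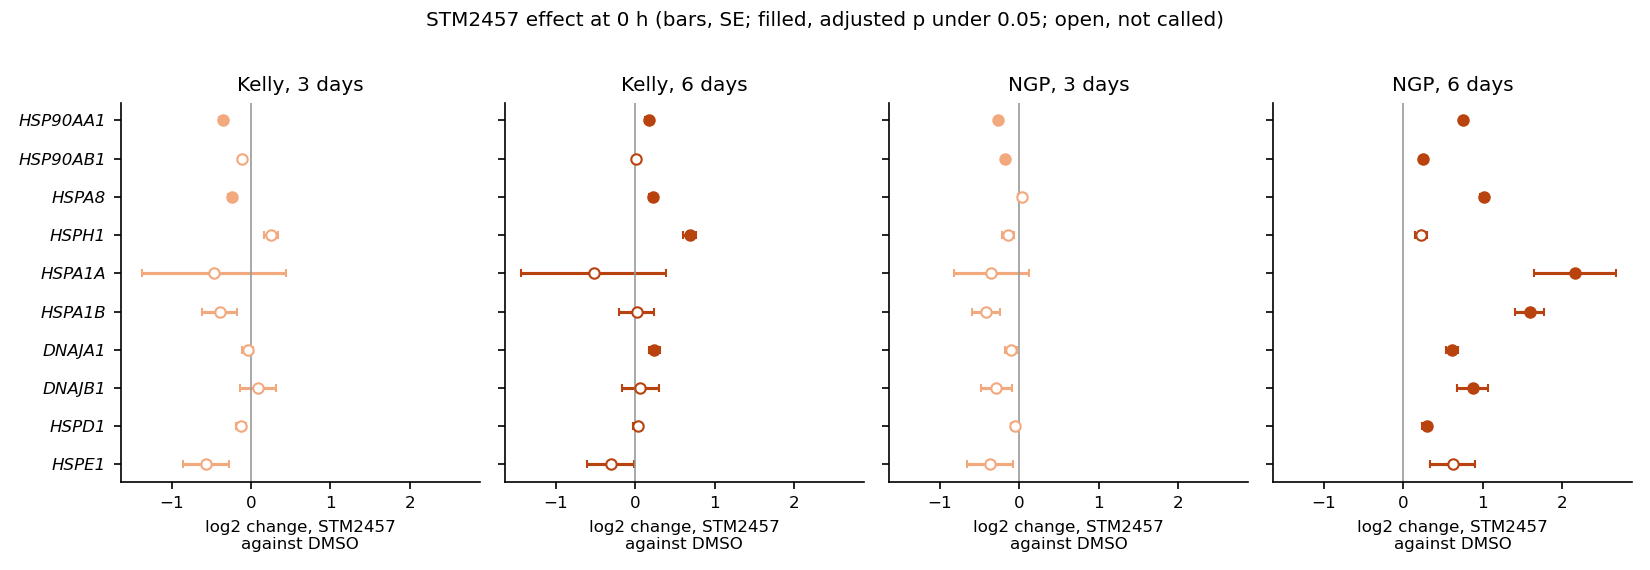
Log2 change under STM2457 against DMSO at 0 h, TMM-scaled, for the 10 members in each line and duration, with bars of 1 SE and filled points for adjusted p under 0.05. The called changes are below 0 at 3 days and above 0 at 6 days; with ERCC scaling HSP90AA1 and HSPA8 change sign in Kelly at both durations and DNAJA1 at 6 days.

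The levels with each agent at 6 and at 3 days were then set side by side, a comparison chosen after the data were seen, which shares its libraries with those above. With DMSO, the members were lower at 6 days in both lines. In Kelly 6 of 10 were called lower (5.74% of all genes), among them HSPA8, which went from 1677 and 1718 to 917 and 890 CPM (-0.91, SE 0.05, adjusted p = 4.79e-39). In NGP 9 of 10 were called lower (6.72% of all genes), all but HSPE1 at -0.64 (SE 0.29, adjusted p = 0.162). HSP90AA1 fell there from 3415 and 3312 to 1291 and 1264 CPM (-1.40, SE 0.03, adjusted p = 5.56e-52) and HSPA1B from 52.0 and 61.1 to 15.7 and 12.8 CPM (-1.98, SE 0.19, adjusted p = 2.22e-14). HSPD1 lost its NGP call without replicate 2 of DMSO at 6 days (-0.16, adjusted p = 0.0919). ERCC scaling moved the Kelly median by 0.35 and the NGP median by -0.15. On that scale HSP90AB1 and HSPD1 were at 0.19 and 0.04 in Kelly, while all 10 members were called lower in NGP.

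With STM2457 the same comparison called 2 of 10 members in each line, all lower (1.19% of all genes in Kelly and 2.31% in NGP). They were HSPA8 (-0.44, SE 0.05) and DNAJA1 (-0.33, SE 0.07) in Kelly, and HSP90AA1 (-0.38, SE 0.03) and HSPA8 (-0.22, SE 0.05) in NGP. In NGP the levels of HSPA1B were 45.4 and 38.9 CPM at 3 days and 37.0 and 49.0 CPM at 6 days of STM2457, which overlap. The NGP increase under STM2457 at 6 days thus stands beside a fall of the DMSO libraries between 3 and 6 days.

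The difference of the STM2457 effect between 6 and 3 days was tested as an interaction. In NGP it was called for 9 of 10 members, all positive (1.75% of all genes), from 0.35 (SE 0.07) for HSPD1 to 2.51 (SE 0.69) for HSPA1A. In Kelly it was called for 3, all positive (0.68% of all genes), namely HSP90AA1 at 0.53 (SE 0.07, adjusted p = 3.67e-10), HSPA8 at 0.47 (SE 0.07, adjusted p = 8.1e-07) and HSPH1 at 0.44 (SE 0.12, adjusted p = 0.0388). The call of HSPH1 was lost in both lines by leaving out single libraries, in Kelly for each of the 8 and in NGP for 7 of the 8. That of HSPA1A in NGP was lost for 6 of the 8, and that of DNAJB1 without replicate 2 of DMSO at 3 days (1.00, adjusted p = 0.0777). With ERCC scaling the Kelly median of all genes moved by -0.62 and the 3 Kelly values became -0.13, -0.18 and -0.22. In NGP the shift was -0.12, and the values of HSPH1 and HSPD1 were 0.22 and 0.20 and no longer called.

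The lines differed in the STM2457 effect at 6 days and, by this test, in none of the 10 members at 3 days. At 6 days 7 members were called (1.75% of all genes), 6 with the larger effect in NGP. HSPA1B differed by 1.59 (SE 0.29, adjusted p = 0.000124), HSPA8 by 0.80 (SE 0.07, adjusted p = 5.22e-13) and HSP90AA1 by 0.60 (SE 0.05, adjusted p = 2.89e-13). HSPH1 went the other way, with a difference of -0.45 (SE 0.11, adjusted p = 0.00941), since its rise was in Kelly. The calls of HSP90AB1, HSPH1, DNAJA1 and HSPD1 were each lost in 3 to 7 of the 8 fits with a library left out. At 3 days the smallest adjusted p was 0.101, for HSPA8, and 0.161% of all genes were called. At an unadjusted p under 0.05 there were 2 members (HSPA8 and HSPH1), DESeq2 called 2 members and limma-voom 1. With ERCC scaling the medians moved by -0.28 at 3 days, where 4 members were called lower, and by 0.22 at 6 days, where HSPH1 was at -0.26 and not called.

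Actinomycin D was compared with 0 h in each line, agent and duration. At 3 h, 6 or 7 of 10 members were called in either direction. The share of all genes called there was 19.9 and 18.2% in Kelly with DMSO for 3 and 6 days, 17.8 and 16.8% in Kelly with STM2457, 24.1 and 21.4% in NGP with DMSO and 20.5 and 18.8% in NGP with STM2457. At 6 h, 5 to 9 of 10 members were called, against 30.1, 26.5, 26.9 and 26.4% of all genes in Kelly and 37.4, 36.7, 32.5 and 32.1% in NGP, in the same order. Most members rose relative to the typical transcript, which TMM scaling sets to no change. Such a rise does not give a decay rate, and whether these transcripts last longer than most was not tested. HSP90AA1, HSP90AB1 and HSPD1 were called higher in all 8 comparisons at 3 h and in all 8 at 6 h. In Kelly with DMSO for 3 days, HSP90AA1 had 1611 and 1702 CPM at 0 h, 2673 and 2802 at 3 h and 3245 and 3366 at 6 h. Its log2 change there was 0.72 (SE 0.05) at 3 h and 1.00 (SE 0.05, adjusted p = 2.75e-50) at 6 h. HSP90AB1 changed by 0.62 to 0.96 and HSPD1 by 0.42 to 0.68 over the 8 comparisons at 6 h.

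DNAJB1 was the member with the opposite course. It was called lower in 7 of 8 comparisons at 3 h and in all 8 at 6 h, when its log2 changes were -2.76 to -0.995. In Kelly with DMSO for 3 days it had 61.0 and 58.7 CPM at 0 h, 33.7 and 33.7 at 3 h, and 6.91 and 10.8 at 6 h (-2.76, SE 0.26, adjusted p = 1.08e-19). In NGP with DMSO for 3 days it had 58.1 and 71.7 CPM at 0 h, 34.2 and 33.02 at 3 h, and 13.7 and 20 at 6 h (-1.95, SE 0.21, adjusted p = 4.42e-13). The libraries of the 3 times did not overlap in either group. At 3 h the DNAJB1 calls in NGP at 6 days, with DMSO (-0.57) and with STM2457 (-0.61), were lost when any library was left out, with values of -0.63 to -0.52 and -0.65 to -0.56. That in Kelly with STM2457 at 6 days (-1.0045) was lost without replicate 2 at 0 h (-0.76, adjusted p = 0.0621) or at 3 h (-0.82, adjusted p = 0.051).

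HSPA8, HSPH1 and DNAJA1 lay between these. HSPA8 was called higher in all 8 comparisons at 3 h and in 4 of 8 at 6 h. In Kelly with DMSO for 3 days it had 1677 and 1718 CPM at 0 h, 2184 and 2198 at 3 h and 1822 and 1841 at 6 h. HSPH1 was called higher in 8 comparisons at 3 h and 6 at 6 h, and DNAJA1 in 7 and 8. The HSPH1 call at 3 h in Kelly with STM2457 for 3 days (0.22) was lost when any library was left out (0.21 to 0.25). HSPE1 was called in none of the 16, with 3 h changes of -0.01 to 0.36 and 6 h changes of -0.41 to 0.35.

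The inducible HSP70 genes went both ways. HSPA1B was called lower at 6 h in Kelly with DMSO at 3 days (-0.60, SE 0.22, adjusted p = 0.0263) and 6 days (-1.36, SE 0.23, adjusted p = 1.73e-07), and in NGP with DMSO at 3 days (-0.54, SE 0.18, adjusted p = 0.0105). In Kelly with DMSO for 6 days its levels were 34.3 and 38.3 CPM at 0 h, 37.0 and 44.6 at 3 h, and 13.04 and 15.2 at 6 h. It was called higher at 6 h in NGP with DMSO for 6 days (1.42, SE 0.19, adjusted p = 8.88e-10) and with STM2457 for 3 days (0.43, SE 0.18, adjusted p = 0.0489). At 3 h it was called once, higher, in NGP with STM2457 for 3 days (0.58, SE 0.18, adjusted p = 0.00985). Apart from those in NGP and Kelly with DMSO for 6 days, these calls were lost when single libraries were left out, with values of -0.63 to -0.50 and -0.47 to -0.42 for the falls and 0.31 to 0.58 for the rises.

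ERCC scaling changes these values. It moved the median of all genes by -0.64 to -0.19 at 3 h and by -1.18 to -0.34 at 6 h, a loss that TMM sets to 0. On that scale HSP90AA1 was at 74 to 148% of its 0 h level after 6 h, called higher in 6 of 8 comparisons and lower in 1. HSP90AB1 was at 63 to 125%, called higher in 2 and lower in 3. HSPA8 was at 44 to 95%, called lower in 7 of 8 comparisons, and DNAJB1 at 10 to 28%, called lower in all 8. The spike-in share of a library ran from 0.266 to 0.671%, and the sources used here do not say at which step the spike-ins were added.

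**Figure D4:**
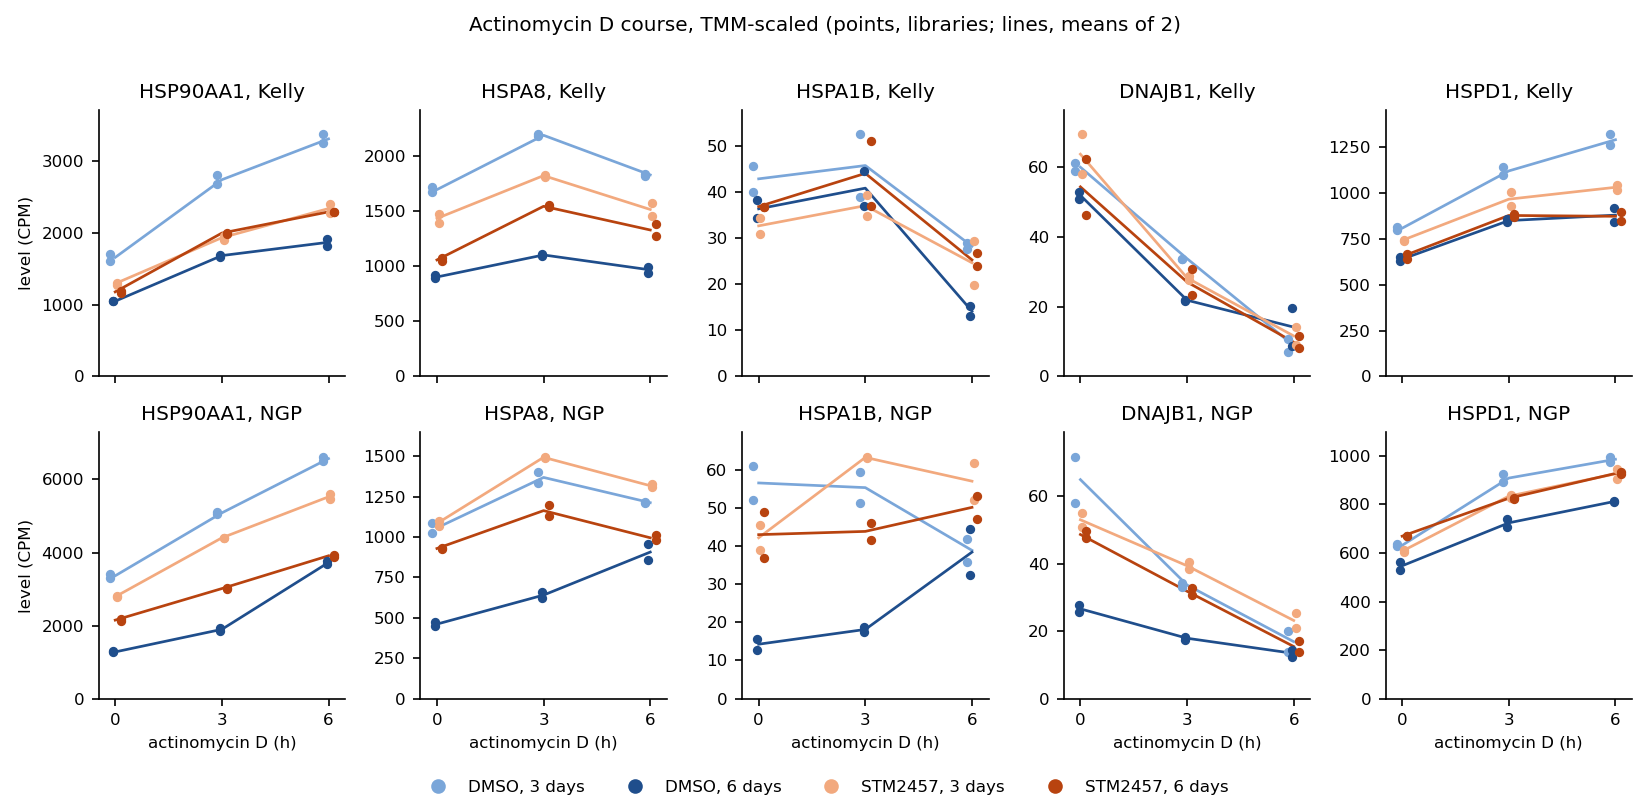
Levels (CPM, TMM-scaled, linear axis from 0) of HSP90AA1, HSPA8, HSPA1B, DNAJB1 and HSPD1 at 0, 3 and 6 h of actinomycin D in Kelly and NGP, with each library as a point and lines through the means of 2. DNAJB1 falls in every arm, and in NGP the line for DMSO at 6 days starts lowest and, for HSP90AA1 and HSPA8, approaches the STM2457 line by 6 h; with ERCC scaling HSPA8 and HSPD1 at 6 h are below their 0 h level in most arms.

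Whether STM2457 changed the course was tested as the difference of the 6 h change between STM2457 and DMSO, here the decay difference. In Kelly no member was called by edgeR at 3 days (0.221% of all genes) or at 6 days (0.424%). At an unadjusted p under 0.05 there were 3 members at 3 days and 3 at 6 days. The smallest adjusted values were 0.294 for HSPH1 (-0.34, SE 0.12) at 3 days and 0.175 for HSPA8 (0.23, SE 0.07) at 6 days. DESeq2 called 1 and 2 members there. HSPA8 was called at 6 days without replicate 1 of STM2457 at 6 h (0.29, adjusted p = 0.0199). ERCC scaling moved the median of all genes by -0.37 at 3 days, where 6 members were called lower, and by 0.70 at 6 days, where 7 were called higher. In NGP at 3 days HSPA1B alone was called (0.98, SE 0.25, adjusted p = 0.0361; 0.703% of all genes). That call was lost in 6 of the 8 fits with a library left out, with values of 0.85 to 1.09, while the summed HSPA1A and HSPA1B gave 1.02 (SE 0.23, adjusted p = 0.00984).

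In NGP at 6 days 5 of 10 members were called, all negative (1.18% of all genes), which means a smaller rise over the 6 h with STM2457 than with DMSO. They were HSPA1B (-1.20, SE 0.26, adjusted p = 0.00143), HSPA8 (-0.88, SE 0.07, adjusted p = 2.34e-16), HSP90AA1 (-0.68, SE 0.04, adjusted p = 3.85e-21), DNAJA1 (-0.36, SE 0.10, adjusted p = 0.027) and HSP90AB1 (-0.29, SE 0.05, adjusted p = 3.56e-05). HSPA1A had -2.25 (SE 0.69, adjusted p = 0.0637), and without replicate 2 of DMSO at 0 h it had -3.29 and was called (adjusted p = 0.0155). DNAJB1 had -0.65 (SE 0.29, adjusted p = 0.312). DNAJA1 lost its call in 4 of 8 fits with a library left out, with values of -0.27 to -0.36 in those. ERCC scaling moved the median of all genes by 0.41. On that scale HSPA1B, HSPA8 and HSP90AA1 were called at -0.76, -0.45 and -0.25, and HSP90AB1 and DNAJA1 were at 0.13 and 0.07, while HSPH1 (0.40) and HSPD1 (0.33) were called higher.

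The levels show where that difference lies. HSPA8 in the NGP libraries with DMSO for 6 days had 474 and 448 CPM at 0 h, 661 and 620 at 3 h, and 954 and 860 at 6 h. With STM2457 it had 923 and 935, then 1198 and 1129, then 1011 and 979 CPM. HSPA1A with DMSO had 0.597 and 1.91 CPM at 0 h, 2.09 and 2.33 at 3 h, and 7.26 and 5.87 at 6 h, and its 6 h change was called higher with TMM scaling (2.41, SE 0.52, adjusted p = 8.13e-05) and with ERCC scaling (1.36). A rise after 6 h of a transcription block was not particular to this gene or group. With ERCC scaling HSP90AA1 was called higher at 6 h in 6 of 8 comparisons, with the highest value (0.56) in Kelly with DMSO for 3 days. The HSPA1A rise was seen in the NGP group with DMSO for 6 days. The 6 h libraries of that group lacked the high ATF5 and ASNS of its 0 h and 3 h libraries, and the part of that state in the rise was not tested. The labels do not say whether the 0, 3 and 6 h libraries of a group came from 1 culture. In the NGP group with DMSO for 6 days a change over time and a difference between cultures therefore cannot be told apart. This holds for its 6 h change and for the NGP decay difference at 6 days.

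The STM2457 effect was therefore taken at each time of actinomycin D, as a description added after the data were seen. In NGP at 6 days, 8 members were called higher at 0 h and 9 at 3 h (4.72% of all genes), but 2 at 6 h (4.86%). HSPA8 was 1.01 (SE 0.05) higher with STM2457 at 0 h, 0.86 (SE 0.05) at 3 h and 0.13 (SE 0.05, adjusted p = 0.0796) at 6 h. HSP90AA1 gave 0.75, 0.67 and 0.07 (SE 0.03 each), and HSPA1B gave 1.59 (SE 0.19), 1.27 (SE 0.18) and 0.39 (SE 0.18, adjusted p = 0.179). The members called at 6 h were DNAJA1 (0.25, SE 0.07, adjusted p = 0.0132) and HSPD1 (0.19, SE 0.05, adjusted p = 0.00852). Each lost its call in 3 of 4 fits with a library left out, with values of 0.18 to 0.26 and 0.18 to 0.20, and HSPA8 gained one without replicate 1 of DMSO (0.21, adjusted p = 0.015). At 3 h HSPA1A, HSPD1 and HSPH1 lost theirs in 3, 3 and 1 of 4 such fits. With ERCC scaling, which moved all genes by 0.38 at 6 h, 8 members were called higher there, with HSPA8 at 0.52 and HSP90AA1 at 0.46. No fit without the 4 libraries that stood apart can give the 0 h or 3 h effect, since they are all the DMSO libraries at those times.

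No difference between the agents was called over the first 3 h. The difference of the 3 h change between STM2457 and DMSO was called for no member in either line or duration by edgeR, and the smallest adjusted p of a member was 0.276. For all genes the share called was 0.0955% (3 days) and 0.0358% (6 days) in Kelly, against 0.0205% and 0.075% in NGP. At an unadjusted p under 0.05 there were 3 members in Kelly at 3 days and 1 in each of the other comparisons. DESeq2 called 1 member in Kelly at 6 days, and ERCC scaling, which moved the median of all genes there by 0.42, called 6. In NGP at 6 days HSPA8 had -0.15 (SE 0.07) over 3 h, against -0.88 over 6 h.

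**Figure D5:**
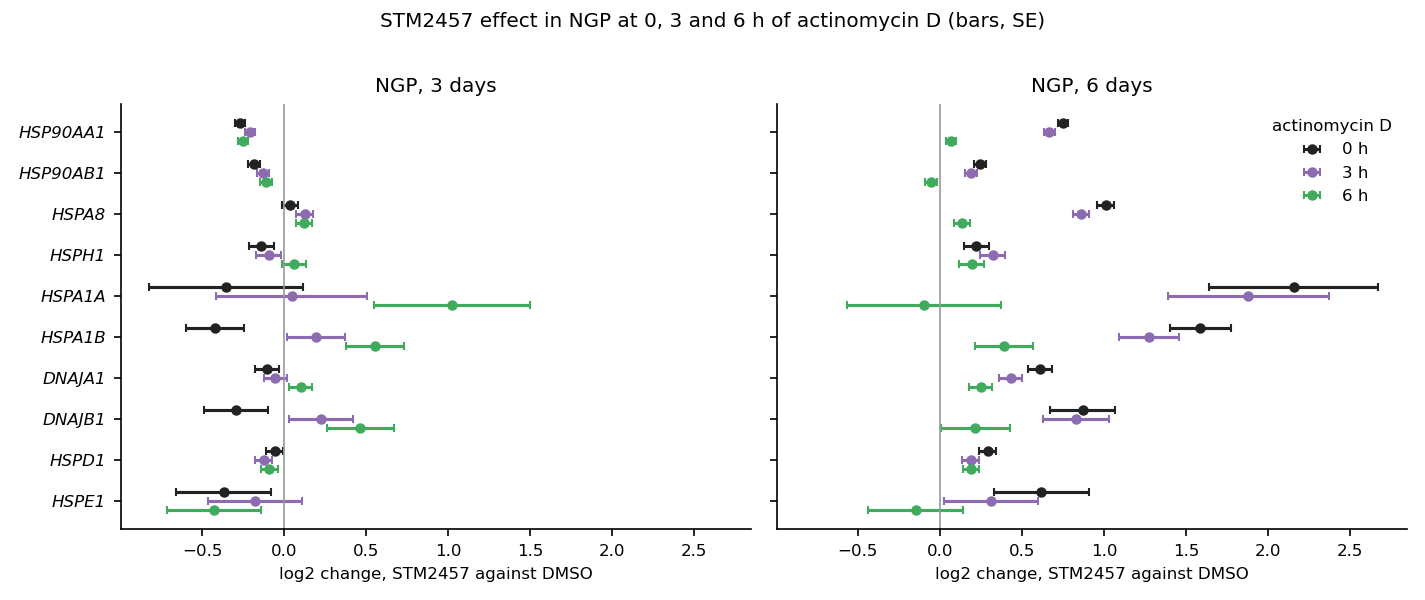
Log2 change under STM2457 against DMSO in NGP at 3 and 6 days, at 0, 3 and 6 h of actinomycin D (colours), TMM-scaled, with bars of 1 SE. At 6 days HSP90AA1, HSPA8 and HSPA1B are higher at 0 and 3 h than at 6 h, where HSPA1B is at 0.39 (SE 0.18) and not called; with ERCC scaling HSPA8 at 6 h is at 0.52.

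In Kelly the called effects had the same sign at all 3 times. At 3 days of STM2457, 4 members were called lower at 3 h (3.78% of all genes) and 4 at 6 h (4.36%), each time HSP90AA1, HSP90AB1, HSPA8 and HSPD1. HSP90AA1 was at -0.36, -0.50 and -0.50 (SE 0.05 each) at 0, 3 and 6 h. At 6 days, 3 members were called higher at 3 h (3.18%) and 5 at 6 h (5.76%). HSPH1 was at 0.69, 0.69 and 0.56 (SE 0.08 each), and HSPA8 at 0.23, 0.49 and 0.46 (SE 0.05 each). HSPA1B was called at 6 h only by this test (0.84, SE 0.23, adjusted p = 0.00598), and the difference from 0 h was not (0.82, SE 0.32, adjusted p = 0.387). That call was lost without replicate 1 of DMSO (0.73, adjusted p = 0.0988) or of STM2457 (0.75, adjusted p = 0.0566), and the HSPD1 call at 3 h of the 3-day effect without replicate 2 of DMSO (-0.19, adjusted p = 0.122) or of STM2457 (-0.16, adjusted p = 0.204). In Kelly at 3 days HSP90AB1, HSPA8 and HSPD1 were at 0.12, 0.16 and 0.21 at 3 h with ERCC scaling, which moved the median by 0.44 there and by 0.03 at 6 h. In NGP at 3 days HSP90AA1 and HSP90AB1 were called lower at 3 h (-0.21 and -0.13; 4.74% of all genes) and at 6 h (-0.25 and -0.11; 6.46%), and HSPA1B higher at 6 h (0.55; 5.19%). HSP90AB1 lost its call in 3 of 4 fits at 3 h and in all 4 at 6 h with a library left out, and HSPA1B in 2 of 4. With ERCC scaling, which moved the 6 h median by 0.24, HSP90AB1 was at 0.14 and HSP90AA1 at 0.00.

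Other genes of the chaperone system were counted in the same way. A list of 71 genes, of which 67 were tested in Kelly and 66 in NGP, covered co-chaperones, further HSP70 and J-domain genes, exchange factors, the CCT chaperonin, small heat shock proteins and heat shock factors. After 3 days of STM2457, 9 of them were lower in Kelly, 13 were lower in NGP and none was higher, with medians of -0.13 and -0.15. Of all genes, 1.1% in Kelly and 2.45% in NGP were called lower at 3 days. At 6 days 2 were higher and 2 lower in Kelly, and 4 higher and 4 lower in NGP, with medians of 0.03 and 0.01. The shares of all genes at 6 days were 2.7% higher and 1.26% lower in Kelly, and 4.45% higher and 3.55% lower in NGP. The shares at 3 and 6 days apply to each list below as well. With DMSO, 21 were lower and none higher at 6 than at 3 days in Kelly, where 5.74% of all genes were called lower. In NGP 18 were lower and 4 higher, where 6.72% of all genes were called lower and 5.37% higher. The decay difference was called for none of them in Kelly by edgeR, and in NGP for none at 3 days and 6 at 6 days, when 2.54% of all genes were called. All values of these lists are relative to the typical gene (TMM scaling) and are not given here with ERCC scaling. That scaling moved the median of all genes at 3 days of STM2457 by 0.38 in Kelly and 0.10 in NGP. The largest called Kelly fall at 3 days, FKBP4 at -0.35, was smaller than the Kelly shift, so the Kelly falls hold relative to other genes only.

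Among HSP90 co-chaperones, 3 of 13 tested were lower at 3 days in each line and none higher (1.1% of all genes were called lower in Kelly and 2.45% in NGP). FKBP4, an immunophilin that joins HSP90 to steroid receptors, was at -0.35 (SE 0.07, adjusted p = 0.000535) in Kelly and -0.42 (SE 0.07, adjusted p = 3.37e-06) in NGP. STIP1, which links HSP70 to HSP90, was lower at 3 days in Kelly (-0.34, SE 0.09, adjusted p = 0.0165) and NGP (-0.28, SE 0.08, adjusted p = 0.0209) and higher at 6 days in NGP (0.23, SE 0.08, adjusted p = 0.0441). FKBP5, a further immunophilin, was higher in Kelly at 6 days (0.41, SE 0.09, adjusted p = 0.000547). TRAP1, the mitochondrial HSP90, named here after its values were seen, was the 1 lower gene of this list at 6 days in Kelly (-0.29, SE 0.09, adjusted p = 0.0366) and in NGP (-0.26, SE 0.08, adjusted p = 0.0385). PTGES3, the p23 co-chaperone, was the third gene lower at 3 days in each line (-0.31 in Kelly and -0.29 in NGP) and was higher at 6 days in NGP (0.23, SE 0.06, adjusted p = 0.0145). It was lower in the NGP decay difference at 6 days (-0.41, SE 0.09, adjusted p = 0.00235).

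The CCT chaperonin and its partner prefoldin, which fold actin and tubulin, had 4 of 14 members lower at 3 days in Kelly (1.1% of all genes) and 7 of 14 in NGP (2.45%), and none higher. Among those in NGP were PFDN2 (-0.50, SE 0.09, adjusted p = 9.61e-05) and CCT8 (-0.34, SE 0.07, adjusted p = 0.00112). At 6 days none was called in Kelly and 1 was lower in NGP, CCT4 (-0.28, SE 0.08, adjusted p = 0.0135), named after its values were seen. CCT5 was lower in the NGP decay difference at 6 days (-0.37, SE 0.08, adjusted p = 0.000804).

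Of further HSP70 genes, 1 was higher and 1 lower in NGP at 6 days. HSPA2, an HSP70 best known from the testis, rose in NGP at 6 days (1.61, SE 0.26, adjusted p = 2.45e-06). HSPA9, the mitochondrial HSP70, fell there (-0.52, SE 0.05, adjusted p = 1.64e-13), and its decay difference was 0.44 (SE 0.07, adjusted p = 6.37e-06). HSPA12A was lower in NGP at 3 days (-0.32, SE 0.10, adjusted p = 0.0387), and HSPA14 had a higher decay difference at 6 days (0.85, SE 0.24, adjusted p = 0.033). For the 0 h effect HSPA2, HSPA9 and HSPA12A were the called genes among 7 tested in NGP, and none of 8 was called for the 0 h effect in Kelly.

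Of 12 other J-domain genes, DNAJB6 was higher at 6 days in Kelly (0.34, SE 0.11, adjusted p = 0.0439) and NGP (0.37, SE 0.11, adjusted p = 0.015), and DNAJB4 was lower in Kelly at 6 days (-1.11, SE 0.31, adjusted p = 0.0168). Of 11 exchange and adaptor factors, ST13, an adaptor between HSP70 and HSP90 that was also named after its values were seen, was lower at 3 days in Kelly (-0.25, SE 0.06, adjusted p = 0.0141) and NGP (-0.25, SE 0.06, adjusted p = 0.0034). BAG6 was lower in NGP at 3 days (-0.26, SE 0.07, adjusted p = 0.0237), and at 6 days so was GRPEL2, an exchange factor of mitochondrial HSP70 (-0.54, SE 0.16, adjusted p = 0.0224). HSPB1, the HSP27 gene, was lower in Kelly at 3 days (-0.33, SE 0.10, adjusted p = 0.0491) and was the 1 of 4 small heat shock proteins called at 0 h. HSF1 was not called in any of the 4 comparisons at 0 h, with log2 changes of 0.02, 0.13, 0.12 and -0.15 (SE 0.12 to 0.13), and its libraries at 0 h had 84.9 to 99.3 CPM in Kelly and 55.2 to 74.8 CPM in NGP. Its mRNA level does not report on the activity of the protein.

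Profiles were compared over the 24 groups as mean log2 CPM centred within each line, with the root mean square (RMS) difference as the measure of likeness. Of 8453 other genes that averaged 10 CPM or more in both lines, VDAC3, CACYBP, KIF11, INCENP and NUF2 were nearest to the members' mean profile. Their RMS differences were 0.12, 0.13, 0.14, 0.15 and 0.15, against a median of 0.397 for all those genes. Every member was farther from that mean than these genes, from 0.16 for HSPA8 to 0.86 for DNAJB1. HSP90AA1 (0.404), HSPA1A (0.52) and DNAJB1 lay beyond the median of all those genes, so the mean joins unlike courses. Among the members, HSP90AB1 and HSPD1 were nearest to each other, with an RMS difference of 0.11. HSPA1A and HSPA1B were each other's nearest (0.38), and DNAJA1 was the nearest of HSP90AA1 (0.25), HSPA8 (0.17) and HSPH1 (0.17). DNAJB1 was the farthest member from every other one, at 0.80 to 1.24. The groups share the lines, days and actinomycin D times, so these are descriptions.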

How the data were processed

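The authors deposited, per the file headers, raw fragment counts per gene for each of the 48 libraries, made with featureCounts on exons grouped by gene name of the GENCODE 33 protein-coding annotation and 92 ERCC sequences. The submitters' processing notes name HISAT2 2.1.0, Subread 1.5.3, Trimmomatic 0.36 and FastQC 0.11.5, and the build is GRCh38. TRIzol RNA was poly(A)-selected and made into cDNA with a SMART kit, per the labels' protocols. The count header names no strand option.

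Groups were taken from the labels. Counts were tested with edgeR 4.0.16 (R 4.3.3) by quasi-likelihood fits on the 24 libraries of a line, or all 48 for comparisons between lines. Genes passed filterByExpr (minimum count 10), scaling was by TMM, which sets the typical gene to no change, and p-values were adjusted by Benjamini-Hochberg within a comparison, with calls under 0.05. Standard errors are log2 changes over the square root of F. CPM used effective library sizes. The scripts were tested on simulated data. Alternatives were ERCC, RLE and library-size scaling, no filter, DESeq2 1.42.0, limma-voom (limma 3.58.1), a replicate block, summing HSPA1A and HSPA1B, and leaving out each library, where a lone library is assumed to vary like the others.

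The members and lists were chosen with earlier results of these data known. Named were all members, HSF1, up to 2 genes per direction and pathway list with the largest called STM2457 change at 0 h, likewise for the decay difference, and the 5 genes nearest to the members' mean profile. Paralogs were compared by coding sequence, from GENCODE 44 transcripts, since no protein table was used here.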

Additional observations from a re-analysis of the deposited data

Results flagged for a closer look

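The STM2457 effect at 0 h differed between 6 and 3 days, by an interaction term in edgeR, for 3 members in Kelly. The log2 differences (6 days minus 3 days) were 0.53 for HSP90AA1, 0.47 for HSPA8 and 0.44 for HSPH1. In NGP it differed for 9 members. These were HSPA1A (2.51), HSPA1B (2.01), DNAJB1 (1.16), HSP90AA1 (1.02), HSPA8 (0.97), DNAJA1 (0.72), HSP90AB1 (0.43), HSPH1 (0.36) and HSPD1 (0.35).

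The effect at 6 days differed between the lines (NGP minus Kelly) for 7 members. The differences were 1.59 for HSPA1B, 0.80 for HSPA8, 0.60 for HSP90AA1, 0.39 for DNAJA1, 0.28 for HSPD1, 0.25 for HSP90AB1 and -0.45 for HSPH1. The NGP values of both comparisons use the DMSO libraries at 6 days with high ATF5 and ASNS, whose part in them was not tested. The Kelly values use the Kelly DMSO libraries at 6 days, where ASNS was raised to a lesser degree, and its part was not tested either.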

How the results depend on the processing

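Of the alternatives tried, ERCC scaling moved the members most. RLE factors turned no sign and changed no count of called members by over 1.5 times, and library-size scaling turned 1 sign, that of HSPA8 in NGP with DMSO for 3 days at 6 h of actinomycin D (-0.0527). The cause of these changes was not tested beyond the shift of all genes given with each result.

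Counts of called members moved by over 1.5 times as follows. With DESeq2 they were 4 for the STM2457 culture-time change in each line (2 in edgeR), 1 for the decay difference in Kelly at 3 days, 2 at 6 days, 1 over 3 h at 6 days, and 2 for the line difference at 3 days (0 each in edgeR). With limma-voom they were 4 for the 3 h STM2457 effect in NGP at 3 days and 1 for the line difference at 3 days, which was also 1 with no filter. With library-size scaling they were 1 for the decay difference in Kelly at 6 days, 2 for the STM2457 effect there and 5 for the 6 h effect in NGP at 6 days. With ERCC scaling they were 3 for the 3 h actinomycin D effect in Kelly with DMSO for 3 days and 2 in each of the 4 NGP groups. With STM2457 for 3 days they were 9 (Kelly) and 4 (NGP) at 6 h. They were 6 for the STM2457 culture-time change in each line, 6 for the decay difference in Kelly at 3 days, 7 at 6 days and 6 over 3 h at 6 days. For the STM2457 effect they were 5 (Kelly) and 1 (NGP) at 3 days without actinomycin D, 6 in Kelly at 6 days after 3 h, and 6 (3 days) and 8 (6 days) in NGP after 6 h. For the line difference at 3 days they were 4.

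Leaving out single libraries gave counts of 1 to 2 for the STM2457 effect at 0 h in Kelly at 3 days, Kelly at 6 days and NGP at 3 days. The ranges were 1 to 2 and 1 to 3 for the effect in NGP at 3 days at 3 h and 6 h, and 0 to 2 in NGP at 6 days at 6 h. They were 0 to 1 for the decay differences in Kelly at 6 days and NGP at 3 days, and 4 to 6 for the line difference at 6 days.

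Replicate numbers did not pair the libraries: deviations of same-numbered libraries correlated at -0.045 to 0.063 in Kelly and -0.032 to 0.12 in NGP, with 0 and 1 of 66 group pairs over 0.1. With the replicate block, 457 member values kept their side of the threshold and 3 passed it: HSPH1 in NGP at 6 days (0.22, adjusted p = 0.0447 in edgeR, giving 9 called members), HSPA8 there at 6 h (0.13) and DNAJA1 in the STM2457 culture-time change (-0.21).

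ERCC scaling turned the sign of 102 member values that were called in at least 1 of the fits. For the 3 h actinomycin D effect the sign turned as follows. In Kelly DMSO 3 days, HSPA8 was at -0.22, HSPH1 at -0.0598, DNAJA1 at -0.0595, HSPD1 at -0.11. In Kelly DMSO 6 days, HSP90AB1 was at -0.13, HSPA8 at -0.39, HSPH1 at -0.25, DNAJA1 at -0.19, HSPD1 at -0.27. In Kelly STM2457 3 days, HSP90AB1 was at -0.12, HSPA8 at -0.21, HSPH1 at -0.34, DNAJA1 at -0.15, HSPD1 at -0.18. In NGP DMSO 3 days, HSPA8 was at -0.0031. In NGP DMSO 6 days, HSPH1 was at -0.16, DNAJA1 at -0.13, HSPD1 at -0.0548. In NGP STM2457 3 days, HSP90AB1 was at -0.0482, HSPA8 at -0.0822, HSPH1 at -0.0269, DNAJA1 at -0.0725, HSPD1 at -0.0868. In NGP STM2457 6 days, HSPA8 was at -0.0246, HSPD1 at -0.0467. For the 6 h actinomycin D effect the sign turned as follows. In Kelly DMSO 3 days, HSPA8 was at -0.33. In Kelly DMSO 6 days, HSP90AA1 was at -0.44, HSP90AB1 at -0.66, HSPA8 at -1.18, HSPH1 at -0.96, DNAJA1 at -0.99, HSPD1 at -0.82, HSPE1 at -1.25. In Kelly STM2457 3 days, HSP90AB1 was at -0.18, HSPA8 at -0.76, HSPH1 at -0.67, DNAJA1 at -0.37, HSPD1 at -0.37, HSPE1 at -0.73. In Kelly STM2457 6 days, HSPA8 was at -0.24, HSPH1 at -0.38, DNAJA1 at -0.0162, HSPD1 at -0.16. In NGP DMSO 3 days, HSP90AB1 was at -0.10, HSPA8 at -0.60, HSPH1 at -0.34, DNAJA1 at -0.36, HSPD1 at -0.16. In NGP DMSO 6 days, HSP90AB1 was at -0.0953, HSPA8 at -0.0775, HSPH1 at -0.63, DNAJA1 at -0.29, HSPD1 at -0.48, HSPE1 at -0.70. In NGP STM2457 3 days, HSPA8 was at -0.37, HSPA1B at -0.22, DNAJA1 at -0.0064, HSPD1 at -0.0465. In NGP STM2457 6 days, HSPA8 was at -0.53, HSPH1 at -0.23, DNAJA1 at -0.22, HSPD1 at -0.15. The sign also turned in the comparisons below, where an effect is that of STM2457. The change with culture time in DMSO, Kelly gave 0.19 for HSP90AB1, 0.0436 for HSPD1. The decay difference over 3 h, Kelly, 6 days gave 0.44 for HSPH1, 0.41 for DNAJA1. The decay difference, Kelly, 6 days gave 0.57 for HSPH1, 0.66 for HSPD1. The duration difference of the STM2457 effect at 0 h, Kelly gave -0.13 for HSP90AA1, -0.52 for HSP90AB1, -0.18 for HSPA8, -0.22 for HSPH1, -0.37 for DNAJA1, -0.50 for HSPD1. With this scaling, the effect at 0 h, Kelly, 3 days was 0.0415 for HSP90AA1, 0.28 for HSP90AB1, 0.16 for HSPA8, 0.36 for DNAJA1, 0.28 for HSPD1. With this scaling, the effect at 0 h, Kelly, 6 days was -0.0845 for HSP90AA1, -0.24 for HSP90AB1, -0.0243 for HSPA8, -0.0108 for DNAJA1, -0.22 for HSPD1. With this scaling, the effect at 3 h of actinomycin D, Kelly, 3 days was 0.12 for HSP90AB1, 0.16 for HSPA8, 0.37 for HSPH1, 0.27 for DNAJA1, 0.21 for HSPD1. With this scaling, the effect at 6 h of actinomycin D, Kelly, 6 days was 0.44 for HSPD1. The change with culture time in STM2457, NGP gave -0.31 for HSP90AB1, -0.17 for HSPD1. The decay difference, NGP, 6 days gave 0.13 for HSP90AB1, 0.40 for HSPH1, 0.0666 for DNAJA1, 0.33 for HSPD1. With this scaling, the effect at 6 h of actinomycin D, NGP, 3 days was 0.14 for HSP90AB1. With this scaling, the effect at 6 h of actinomycin D, NGP, 6 days was 0.33 for HSP90AB1. The level difference between the lines, 3 days gave 0.39 for HSPH1, 0.0766 for DNAJA1, 0.0960 for HSPD1. The line difference of the STM2457 effect at 0 h, 3 days gave -0.21 for HSP90AA1.

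Depth limits HSPA1A most, with as few as 11 fragments in a library.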
